A study of Mus musculus with 32 samples.

Results

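The macrophage identity genes are 9 genes whose RNA is commonly used to recognise macrophages: Csf1r, Mertk, Fcgr1, Emr1 (which encodes F4/80), Lyz2, Apoe, Pf4, Cd68 and Gpnmb. They were taken by gene symbol from the 22216 genes in the tables, and each stood on 1 entry. The 9 were chosen with earlier results of these data known. RNA sequencing measured them in dendritic cells grown from C57BL/6 mouse bone marrow in GM-CSF for 9 days. The cells were dKO, which lack the immunoproteasome subunits LMP7 and MECL1 (Lmp7-/-Mecl1-/-, genes Psmb8 and Psmb10), or WT. Both genotypes received lipopolysaccharide (LPS, 1 µg/mL), a bacterial product that matures dendritic cells, for 0, 1, 2 or 6 h. The 8 groups held 4 libraries each, 32 in all. The labels tie no library to an animal or dish and give neither age nor sex of the mice, so p-values measure the spread between libraries, which may be technical.

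CSF1 receptor signalling keeps monocytes and macrophages alive, and macrophages are specialised in engulfing dying cells, microbes and lipoproteins and in digesting them in lysosomes. Several of the 9 genes serve these tasks, but none is exclusive to macrophages: neutrophils also make Lyz2, platelets are the classical source of Pf4, and many tissues make Apoe. Bone marrow cultures in GM-CSF are known to hold macrophage-like cells beside dendritic cells, and LPS is known to lower Csf1r in macrophages. In bulk RNA, fewer cells of a type and less RNA per cell cannot be told apart.

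Values are RPKM, read density corrected for gene length and library size. Depth was between 1.27 and 1.87 Gb a library, where a second column, whose unit is not stated, is read as bases aligned to genes. All 9 genes passed the filter of 1 RPKM in at least 4 libraries that left 11154 genes for testing. Psmb8 reached at most 7.42 RPKM in dKO libraries, against at least 150.3 in WT libraries, and Psmb10 at most 17.1, against at least 41.6, as the genotype labels say. The LPS state of 5 dKO libraries went against the label: by correlation with the WT group means, dKO 0 h replicate 2 lay nearest to WT 1 h, dKO 1 h replicate 2 to WT 2 h, dKO 2 h replicate 2 to WT 0 h, dKO 2 h replicate 4 to WT 6 h, and dKO 6 h replicate 4 to WT 2 h. Il6, a cytokine gene that LPS induces, was at 1124 RPKM in dKO 0 h replicate 2, against 0.836 to 2.04 in the other 3 libraries of its group, and at 1.67 in dKO 2 h replicate 2, against 1154 to 1641. These libraries stayed in their labelled groups, and the tests of the 9 genes were also run on the 27 others. The 5 were picked from the values of all genes tested, the 9 genes among them. Leaving them out removes libraries unlike their group and so narrows the spread. Tests on the 27 libraries are therefore not independent of that choice, and their p-values are given as description. The nearest times of the 5 libraries (0, 1, 2, 2 and 6 h) were the same set as their labels. RNA of cell types other than macrophages was measured beside the 9 genes. The summed level of 14 dendritic cell genes, among them the MHC class II genes H2-Aa and Cd74, was 8097 to 13946 RPKM in dKO libraries and 10683 to 15143 in WT libraries, whereas Flt3, a dendritic cell growth factor receptor, reached at most 2.00 RPKM in any library.

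Lyz2, which encodes the secreted enzyme lysozyme, had a median of 8760 RPKM over the 32 libraries and ranked from 1 to 13 among all genes by RPKM, taking 2.53% of the summed RPKM. Next came Cd68 (median 342 RPKM), Apoe (239), Csf1r (176), Gpnmb (108), Pf4 (66.7), Emr1 (62.4), Fcgr1 (62.0) and Mertk (45.4). Csf1r varied most, 19.7 times between its lowest library (WT 6 h) and its highest (dKO 0 h). Emr1 varied least, 1.70 times.

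**Figure D1:**
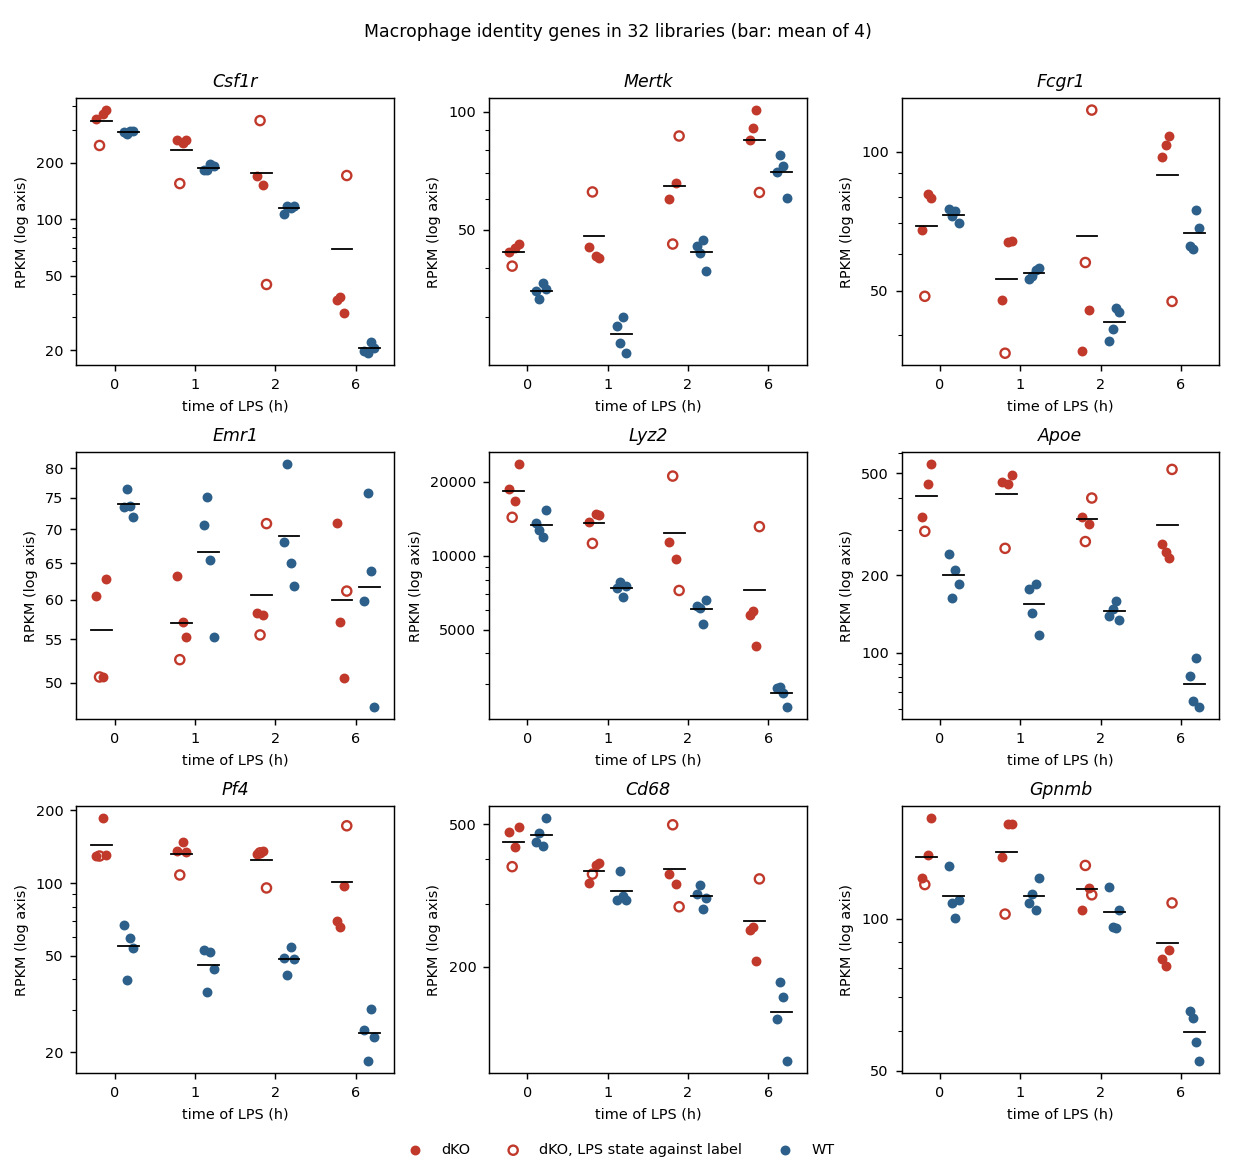
RPKM (log axis) of the 9 genes in each of the 32 libraries by hours of LPS, with dKO in red to the left of WT in blue; open circles are the 5 dKO libraries against their LPS label, and bars are means of 4. The 16 dKO libraries lie at 235 RPKM or above for Apoe, and Csf1r averages 20.5 RPKM in WT cells at 6 h.

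The first question was whether cells without LMP7 and MECL1 differ from WT cells in these genes. Pf4 and Apoe rose in dKO cells at each of the 4 times, 2.93-fold and 2.62-fold on average, and Lyz2 rose 1.83-fold on average. Mertk, Gpnmb, Cd68 and Csf1r were higher by 1.23-fold to 1.44-fold on average, and Emr1 was lower. Averaged over the 4 times, 7 of the 9 genes were called higher and 1 lower at an adjusted p below 0.05, where 7.73% of all genes tested were called higher and 23.4% lower. With the 27 libraries these counts were 8 higher and 1 lower, against 16.4% and 45.0% of all genes. The median log2 change was 0.47 over the 9 genes and -0.10 over all genes. After median-of-ratios scaling, which divides each library by the median ratio of its genes to their mean over libraries, 7 of the 9 were called higher and 0 lower, against 14.2% and 17.7% of all genes.

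By time, the count of genes called higher in dKO cells was 2 at 0 h (0.932% of all genes), 4 at 1 h (1.84%), 4 at 2 h (5.15%) and 6 at 6 h (4.55%), and none was called lower (5.91%, 9.02%, 7.24% and 10.2% of all genes). Without the 5 libraries it was 6, 6, 5 and 8 higher (6.75%, 9.8%, 9.29% and 13.9%), and Emr1 alone was called lower, at 0 h (lower calls over all genes 19.4%, 29.4%, 23.8% and 33.0%). After median-of-ratios scaling it was 3, 5, 3 and 6 higher (1.8%, 3.96%, 8.18% and 7.67%) and 0 lower (3.42%, 6.93%, 9.69% and 8.97%). Counting genes whose 4 dKO libraries all lay above the 4 WT libraries gave 3 at 0 h (3.53% of all genes), 4 at 1 h (5.68%), 3 at 2 h (6.01%) and 6 at 6 h (8.09%), and Emr1 lay wholly lower at 0 h (22.9%). In the 27 libraries these were 5, 6, 6 and 8 genes (10.8%, 10.9%, 14.2% and 13.9%), with Emr1 wholly lower at 0 h and 2 h (25.9% and 31.2%). Only 2 dKO libraries remained at 2 h, so that groups stand apart there more easily. The 4 times share no libraries, but they share 1 estimate of the spread.

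**Figure D2:**
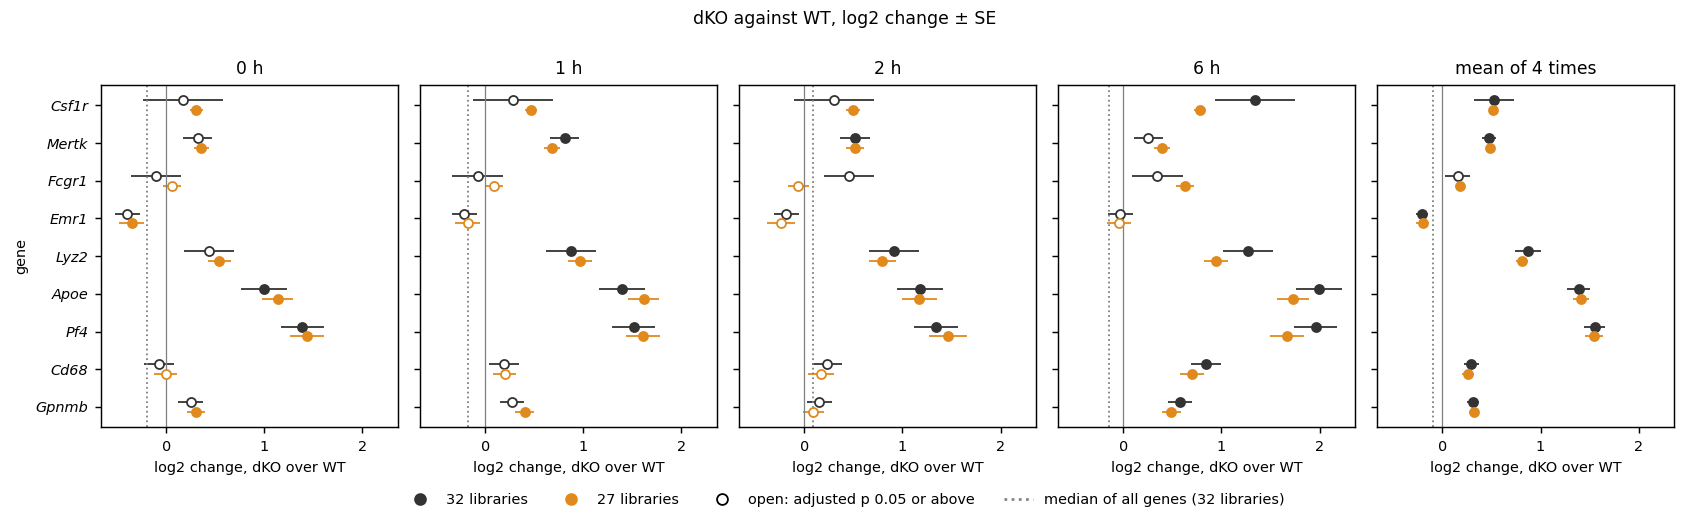
Log2 change of the 9 genes in dKO over WT cells (± SE) at 0, 1, 2 and 6 h of LPS and averaged over the 4 times, with 32 libraries (dark) and 27 (orange); open symbols did not pass an adjusted p of 0.05, and the dotted line is the median of all genes. Pf4 and Apoe have the 2 largest changes in every panel, and Emr1 lies below 0.

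Among the secreted products, Pf4 encodes platelet factor 4 (CXCL4), a chemokine, and Apoe encodes the lipoprotein component apolipoprotein E, which macrophages release as they export cholesterol. Promoter sequences (250 bases before to 50 after the start, RefSeq, GRCm38.p6) of these 2 genes are shown because they changed together across libraries. Capitals mark GAGGAA or its reverse complement TTCCTC, the core letters bound by PU.1, the master transcription factor of myeloid cells. The first lies on the plus strand at chr5:90772185-90772484, and the second, the most upstream of 3 listed Apoe starts, on the minus strand at chr7:19699139-19699438.
Pf4: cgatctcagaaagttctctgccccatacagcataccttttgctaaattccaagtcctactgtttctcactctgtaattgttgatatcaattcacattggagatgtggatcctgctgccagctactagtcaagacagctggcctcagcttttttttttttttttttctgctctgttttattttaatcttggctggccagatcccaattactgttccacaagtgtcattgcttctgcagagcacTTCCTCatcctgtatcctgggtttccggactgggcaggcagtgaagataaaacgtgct
Apoe: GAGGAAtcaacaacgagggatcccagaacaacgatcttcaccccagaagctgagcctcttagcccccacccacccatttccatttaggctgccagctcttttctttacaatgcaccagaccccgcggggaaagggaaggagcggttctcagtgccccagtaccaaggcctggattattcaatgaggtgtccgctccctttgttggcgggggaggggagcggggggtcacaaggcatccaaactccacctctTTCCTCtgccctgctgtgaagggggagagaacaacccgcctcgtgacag
The Pf4 promoter held 1 match and this Apoe promoter 2, while 28.3% of the 32851 promoters of this length held at least 1. Whether these matches bear on the changes of the 2 genes was not tested.

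Pf4 (mm9 chromosome 5, 91201461 to 91202409) had 129, 129, 186 and 131 RPKM in dKO cells at 0 h, against 67.3, 39.6, 59.1 and 53.8 in WT cells. At 6 h it had 69.6, 66.1, 97.2 and 173 RPKM in dKO cells, against 24.8, 18.3, 30.2 and 23.1 in WT cells. The genotypes did not overlap at either time, nor at 1 h (108 to 148 RPKM in dKO cells, 35.4 to 52.7 in WT cells) or 2 h (95.5 to 136 and 41.8 to 54.6). Over the time course Pf4 averaged 125 ± 32.1 RPKM in dKO cells and 43.4 ± 13.9 in WT cells (SD, n = 16 each). Its log2 change was 1.39 ± 0.22 at 0 h (SE, adjusted p = 7.85e-05), 1.51 at 1 h, 1.34 at 2 h and 1.96 ± 0.22 at 6 h (adjusted p = 3.01e-07). In the 27 libraries alone it was 1.43, 1.61, 1.47 and 1.67, with adjusted p-values of at most 3.91e-06.

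Apoe (chromosome 7, 20281593 to 20284515) had 337, 297, 456 and 543 RPKM in dKO cells at 0 h, against 243, 163, 210.4 and 186 in WT cells. At 6 h it had 264, 246, 235 and 518 RPKM in dKO cells, against 81.0, 64.9, 95.4 and 61.2 in WT cells. The genotypes were apart at every time, also at 1 h (255 to 492 RPKM in dKO cells, 117 to 185 in WT cells) and 2 h (271 to 401 and 134 to 159). The highest dKO library at 6 h and the lowest at 1 h were both against their LPS label. The log2 change was 1.00 ± 0.23 at 0 h (adjusted p = 0.00637), 1.40 at 1 h, 1.18 at 2 h and 1.99 ± 0.23 at 6 h (adjusted p = 5.49e-07). Leaving out the 5 libraries gave 1.14, 1.61, 1.17 and 1.73, all called.

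Because Pf4 is a platelet product, 8 other platelet and megakaryocyte genes were measured beside it. Their summed level was 8.98 to 12.0 RPKM in dKO cells at 0 h, against 3.62 to 6.15 in WT cells, and 3.24 to 7.51 in dKO cells at 6 h, against 3.30 to 4.84 in WT cells. Of the 3 that could be tested, Ppbp, another platelet chemokine, rose (3.36 ± 1.39 RPKM in dKO cells and 1.20 ± 0.650 in WT cells, adjusted p = 6.42e-06) and so did Treml1 (2.11 ± 1.97 and 0.576 ± 0.469, adjusted p = 0.000728). Itga2b, the platelet integrin gene, fell (1.69 ± 0.512 RPKM in dKO cells and 3.03 ± 0.930 in WT cells, adjusted p = 6.71e-06). The platelet receptor genes Gp9 and Gp1bb were at most 0.250 and 0.0954 RPKM in any library.

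Lyz2 (chromosome 10, 116714597 to 116719328) had 18643, 14347, 16669.7 and 23616 RPKM in dKO cells at 0 h, against 13552, 12748, 11908 and 15421 in WT cells. Here the genotypes overlapped, and the change passed the test with the 27 libraries (log2 0.54, adjusted p = 0.00143) but not with 32 (0.43 ± 0.26, adjusted p = 0.375). At 1 h it had 13668, 11228, 14864 and 14698 RPKM in dKO cells, against 7426, 7821, 6765 and 7546 in WT cells. The 2 genotypes stood apart there, at 2 h (7222 to 21112 and 5298 to 6602) and at 6 h, where Lyz2 had 5729, 5940.1, 4311 and 13141 RPKM in dKO cells, against 2907, 2933, 2764 and 2416 in WT cells. Its log2 change was 0.87 at 1 h (adjusted p = 0.0243), 0.91 at 2 h (0.0178) and 1.27 ± 0.26 at 6 h (0.000905), and 0.96, 0.79 and 0.94 with the 27 libraries. Leaving out 1 library ended the call at 1 h in 5 of 8 cases, with the change then at 0.83 to 0.89. At 2 h the call ended without WT replicate 3 or dKO replicate 2, and the change was 0.61 without the second. After quantile normalization, which gives the top ranks of every library nearly the same value, the change at 1 h was 0.24 (adjusted p = 0.621). Reads of Lyz2 can also match its paralog Lyz1, which held 0.0175% to 0.0293% of the RPKM of the pair, and how such reads were counted is not given in the sources used here.

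Among the receptors, Csf1r encodes the receptor for CSF1 and interleukin 34. Csf1r (chromosome 18, 61265226 to 61290793) had 339.7, 247, 363 and 381 RPKM in dKO cells at 0 h, against 290.1, 285, 295 and 296 in WT cells. At 6 h it had 36.9, 38.6, 31.4 and 171 RPKM in dKO cells, against 19.9, 19.3, 22.2 and 20.6 in WT cells. The dKO library at 247 and the one at 171 RPKM were 2 of the 5 against their label, and the 4 WT libraries lay close together at both times. At 6 h the log2 change was 1.34 ± 0.40 (adjusted p = 0.0233), but 0.78 without dKO replicate 4, when it no longer passed (adjusted p = 0.158). It also lost its call without WT replicate 1, 2 or 4. The averaged change of 0.52 ± 0.20 (adjusted p = 0.0488) lost its call in 26 of 32 omissions of 1 library, with adjusted p-values up to 0.0742. Omitting the 5 libraries, Csf1r was higher at every time, by 0.31 at 0 h, 0.47 at 1 h, 0.50 at 2 h and 0.78 at 6 h on the log2 scale (adjusted p of at most 0.000581), and 0.51 ± 0.03 on average. The genotypes did not overlap at any time in these libraries, of which dKO cells at 2 h had only 2.

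Mertk encodes the receptor with which macrophages bind dying cells through the bridging proteins Gas6 and protein S. Mertk (chromosome 2, 128524733 to 128627924) had 44.0, 40.4, 45.1 and 46.0 RPKM in dKO cells at 0 h, against 34.9, 33.2, 36.7 and 35.3 in WT cells. At 1 h it had 45.2, 62.5, 43.0 and 42.5 RPKM in dKO cells, against 28.4, 25.7, 30.1 and 24.2 in WT cells. Every dKO library exceeded every WT library at both times. The log2 change was 0.81 ± 0.15 at 1 h (adjusted p = 0.000415) and 0.52 at 2 h (adjusted p = 0.0213; not called without WT replicate 4, or without dKO replicate 4 at 0.36), and it missed the threshold at 0 h (0.32, adjusted p = 0.243) and 6 h (0.25, adjusted p = 0.289). With the 27 libraries it was 0.36, 0.68, 0.51 and 0.39 at the 4 times, each called, and 0.49 on average, close to the 0.47 ± 0.08 of all libraries (adjusted p = 1.18e-05). The call at 2 h was also lost after median-of-ratios scaling (0.44, adjusted p = 0.138).

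Fcgr1 encodes the high-affinity IgG receptor CD64. Fcgr1 (chromosome 3, 96086832 to 96097892) ranged from 36.6 to 123 RPKM in dKO libraries and from 38.9 to 75.2 in WT libraries, and no genotype comparison passed with 32 libraries (averaged log2 change 0.15 ± 0.13, adjusted p = 0.403). At 6 h it had 97.5, 104, 108 and 47.4 RPKM in dKO cells, against 62.4, 61.6, 74.8 and 68.5 in WT cells. The dKO library below the WT range was replicate 4, against its label, and without the 5 libraries the change at 6 h was 0.62 ± 0.09 (adjusted p = 5.91e-06) and the averaged change 0.18 (adjusted p = 0.00253).

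Emr1 encodes F4/80, an adhesion receptor long used as the surface marker of mouse macrophages. Emr1 (chromosome 17, 57498109 to 57622952) had 60.5, 50.7, 50.7 and 62.8 RPKM in dKO cells at 0 h, against 73.5, 76.5, 73.7 and 72.0 in WT cells. All 4 dKO libraries lay below the WT range, yet the change missed the threshold (log2 -0.40 ± 0.13, adjusted p = 0.0539); with the 27 libraries it passed (-0.35, adjusted p = 0.0407). At 6 h the genotypes overlapped, at 50.6 to 70.9 RPKM in dKO cells and 47.4 to 75.7 in WT cells. Averaged over the times Emr1 fell by 0.21 on the log2 scale (SE 0.06, adjusted p = 0.0126), but this call was lost after median-of-ratios scaling (-0.11, adjusted p = 0.336) and quantile normalization (-0.15, adjusted p = 0.0697).

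Of the lysosomal and membrane glycoproteins, CD68 is a heavily glycosylated protein of late endosomes and lysosomes, and GPNMB is a glycoprotein of lysosomes and the cell surface that lipid-laden and stressed macrophages make. The Cd68 promoter (minus strand, chr11:69666121-69666420, RefSeq, GRCm38.p6) is shown because Cd68 was the 1 of the 9 genes whose LPS response was called different between genotypes with all libraries. Capitals mark the PU.1 core as above and TGAGTCA, the site of AP-1, a factor that LPS activates.
Cd68: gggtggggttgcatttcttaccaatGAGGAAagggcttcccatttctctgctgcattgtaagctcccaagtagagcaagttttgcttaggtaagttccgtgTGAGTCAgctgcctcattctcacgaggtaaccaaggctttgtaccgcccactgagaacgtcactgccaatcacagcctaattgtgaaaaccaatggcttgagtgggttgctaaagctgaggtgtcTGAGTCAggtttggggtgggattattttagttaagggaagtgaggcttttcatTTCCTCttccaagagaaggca
It held 2 matches to the PU.1 core and 2 to TGAGTCA, which 5.20% of the 32851 promoters held at least once on either strand. Whether these sites bear on the LPS response of Cd68 was not tested.

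Cd68 (chromosome 11, 69477873 to 69479564) had 475, 381, 433 and 491 RPKM in dKO cells at 0 h, against 447, 473, 434 and 521 in WT cells. At 6 h it had 254, 259, 208 and 352 RPKM in dKO cells, against 143, 182, 165 and 109 in WT cells. The genotypes overlapped at 0 h and were apart at 6 h. Its log2 change was -0.08 ± 0.15 at 0 h (adjusted p = 0.789) and 0.84 ± 0.15 at 6 h (adjusted p = 0.000278), and 0.70 at 6 h with the 27 libraries.

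Gpnmb (chromosome 6, 48986517 to 49008181) had 121, 117, 134 and 158 RPKM in dKO cells at 0 h, against 128, 107, 101 and 109 in WT cells. At 6 h it had 83.4, 80.6, 86.9 and 108 RPKM in dKO cells, against 65.6, 63.7, 57.0 and 52.2 in WT cells. As for Cd68, the groups overlapped at 0 h and not at 6 h. The log2 change was 0.25 at 0 h (adjusted p = 0.277) and 0.58 ± 0.12 at 6 h (adjusted p = 0.00156), and with the 27 libraries Gpnmb was called higher at 0, 1 and 6 h (0.30, 0.40 and 0.49).

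The second question was how the genes respond to LPS. After 6 h most of them, like most of all genes tested, had fallen in both genotypes. Csf1r fell furthest, to 7.04% of its mean at 0 h in WT cells, while Mertk reached 200.3% of its own. In WT cells at 6 h, 7 genes were called lower and 1 higher, where 60.9% of all genes were called lower and 14.9% higher, and the counts were the same with the 27 libraries (69.6% and 18.6%). The median log2 change was -1.17 over the 9 genes and -0.65 over all genes. The shift of all genes moved with scaling. After median-of-ratios scaling the median of all genes was -0.14, and 6 of the 9 genes were called lower and 1 higher (38.6% and 28.3% of all genes).

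In dKO cells at 6 h, 5 genes were called lower and 1 higher (60.2% and 14.7% of all genes). Without the 5 libraries these were 6 lower and 2 higher (68.5% and 18.8%), and the same 8 genes lay wholly below (67.9%) or above (18.5%) their 0 h group. The lower counts, with and without the 5 libraries, were near the shares over all genes. The median log2 change was -0.56 over the 9 genes and -0.62 over all genes, or -0.82 and -0.72 with the 27 libraries. After median-of-ratios scaling 2 genes, Csf1r and Lyz2, were called lower and Mertk, Fcgr1 and Emr1 higher (39.5% of all genes lower and 27.1% higher).

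**Figure D3:**
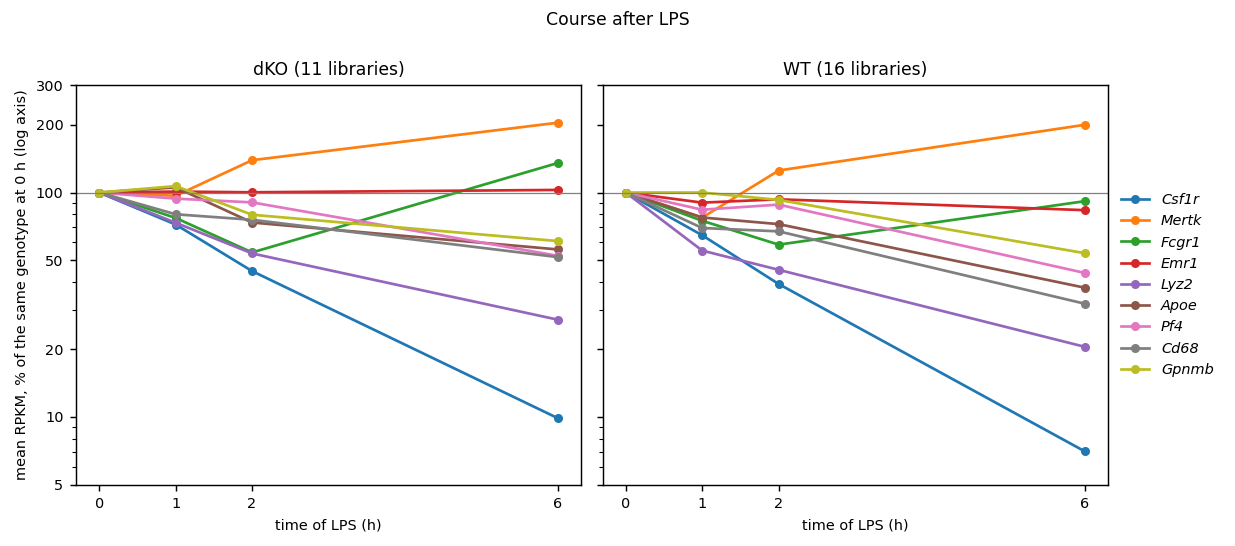
Mean RPKM of each gene as a percentage of its genotype's mean at 0 h (log axis) against hours of LPS, for the 11 dKO libraries that fit their LPS label (left) and the 16 WT libraries (right). Csf1r falls to 9.87% in dKO and 7.04% in WT cells, Mertk climbs to about 200%, and Fcgr1 dips at 2 h and is higher again at 6 h. The dKO points at 2 h are means of 2 libraries. With all 4 dKO libraries, Fcgr1 was at 95.0% at 2 h.

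Csf1r had 19.9, 19.3, 22.2 and 20.6 RPKM in WT cells at 6 h, against 290.1, 285, 295 and 296 at 0 h, with no overlap. Its log2 change was -3.80 ± 0.40 (adjusted p = 3.73e-08), and -3.24 after median-of-ratios scaling. At 1 h the WT libraries lay at 182 to 195 RPKM and at 2 h at 106 to 118, so that the 4 WT times were apart from each other. With 32 libraries Csf1r was not called at 1 h in WT cells. It was called lower at 2 h, but not after median-of-ratios scaling. The median log2 change of all genes in WT cells was -0.42 at 1 h and -0.73 at 2 h. Among dKO libraries that fit their label, Csf1r was 339.7 to 381 RPKM at 0 h, 254 to 264 at 1 h, 152 to 171 at 2 h and 31.4 to 38.6 at 6 h. The log2 change at 6 h in dKO cells was -2.63 ± 0.40 (adjusted p = 7.4e-06), and -3.33 ± 0.07 with the 27 libraries.

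Lyz2 fell in WT cells by 0.85 on the log2 scale at 1 h (adjusted p = 0.00906), by 1.14 at 2 h and, at 6 h, with a change of -2.28 ± 0.26 (adjusted p = 6.84e-08), or -1.72 after median-of-ratios scaling. In dKO cells the change at 6 h was -1.44 ± 0.26 (adjusted p = 2.64e-05), or -1.88 with the 27 libraries. Mean Lyz2 at 6 h was 27.1% of 0 h in the dKO libraries that fit their label and 20.5% in WT cells.

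Cd68, Apoe, Pf4 and Gpnmb were also called lower in WT cells at 6 h, by log2 changes of -1.66, -1.41, -1.17 and -0.89, with groups apart for each (67.0% of all genes lay wholly below their 0 h group). After median-of-ratios scaling they were still called lower, at -1.10, -0.85, -0.61 and -0.33. In dKO cells at 6 h the changes were -0.75 for Cd68, -0.41 for Apoe, -0.60 for Pf4 and -0.56 for Gpnmb, all called but Apoe (adjusted p = 0.11). In the 27 libraries alone all 4 were called lower, at -0.96, -0.82, -0.93 and -0.71. After median-of-ratios scaling of the 32 libraries none of the 4 was called in dKO cells (-0.23, 0.10, -0.08 and -0.05), and Apoe changed sign. The Pf4 call in dKO cells ended without dKO 0 h replicate 3, or without dKO 6 h replicate 1 or 2 (-0.47, -0.45 and -0.43).

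Mertk rose in both genotypes. It had 70.1, 77.6, 72.8 and 60.1 RPKM in WT cells at 6 h, against 34.9, 33.2, 36.7 and 35.3 at 0 h, a log2 change of 0.99 ± 0.15 (adjusted p = 2.59e-06). All 4 libraries at 6 h were above those at 0 h, which held for 17.6% of all genes. In dKO cells the change was 0.92 ± 0.15 (adjusted p = 1.09e-05), and 1.02 with the 27 libraries. At 1 h Mertk had been lower in WT cells (24.2 to 30.1 RPKM, against 33.2 to 36.7 at 0 h, log2 -0.37, adjusted p = 0.042). That dip lost its call in 7 of 8 omissions of 1 library and became 0.036 after median-of-ratios scaling.

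Fcgr1 had 62.4, 61.6, 74.8 and 68.5 RPKM in WT cells at 6 h, against 75.2, 72.6, 74.3 and 70.2 at 0 h, and the groups overlapped (log2 -0.13, adjusted p = 0.647). At 2 h it had 38.9, 41.3, 46.0 and 45.0 RPKM in WT cells, below all WT libraries at 0 h (-0.77, adjusted p = 0.00876, but -0.11 and not called after median-of-ratios scaling). In the dKO libraries that fit their label it had 97.5, 104 and 108 RPKM at 6 h, against 67.6, 81.1 and 79.5 at 0 h. With all 32 libraries the change was 0.32 and did not pass (adjusted p = 0.26). In the 27 libraries, chosen by their fit to the labels, it was 0.44 (adjusted p = 0.000212).

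The mean of Emr1 at 6 h was 103% of that at 0 h in the dKO libraries that fit their label and 83.5% in WT cells. The WT change of -0.28 (adjusted p = 0.0491) lost its call in 7 of 8 omissions of 1 library and was 0.28 after median-of-ratios scaling.

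**Figure D4:**
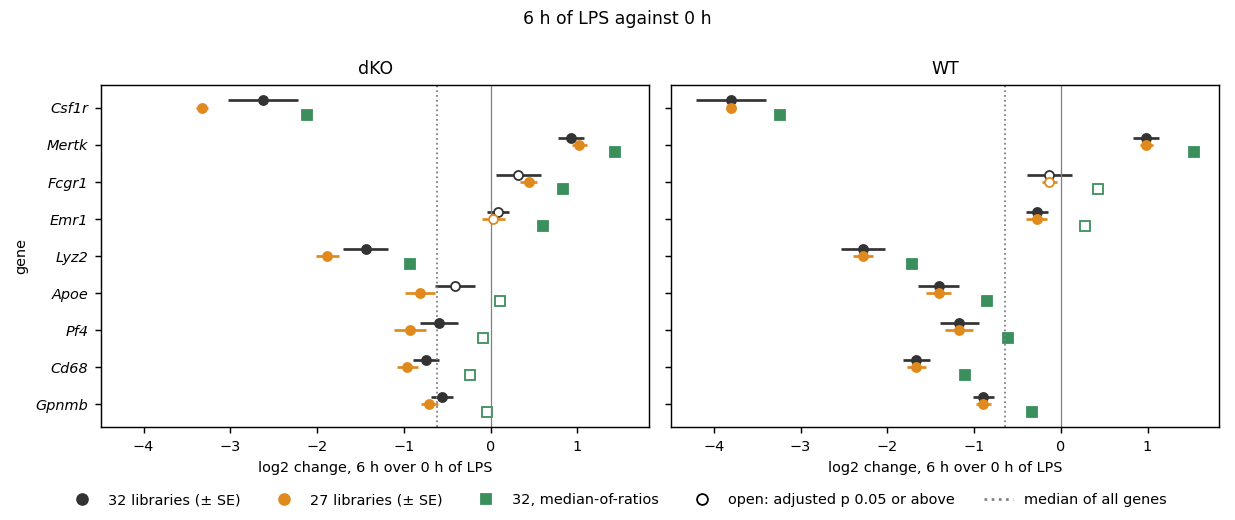
Log2 change of the 9 genes at 6 h over 0 h of LPS in dKO (left) and WT cells (right): dark, 32 libraries; orange, 27 libraries; green, 32 libraries after median-of-ratios scaling. Open symbols did not pass an adjusted p of 0.05, and dotted lines mark the medians of all genes (-0.62 and -0.65); Csf1r and Lyz2 are lower in every setting shown.

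At the earlier times fewer genes passed. In WT cells Lyz2, Cd68 and Mertk were called lower at 1 h, that is 3 lower and 0 higher (45.5% and 6.84% of all genes), and Csf1r, Lyz2, Fcgr1 and Cd68 at 2 h, that is 4 lower and 0 higher (68.5% and 11.2%). None of these calls held in that direction after median-of-ratios scaling, under which 0 of the 9 were lower and 1 higher at 1 h (15.6% and 13.2% of all genes) and 0 lower and 3 higher at 2 h (36.7% and 26.1%). In dKO cells limma called 0 genes at 1 h (44.1% of all genes were lower and 5.82% higher), and no gene had an unadjusted p below 0.05. At 2 h it called Csf1r and Lyz2 lower and Mertk higher (53.8% and 9.17%). The Csf1r call ended without dKO 2 h replicate 4 (-0.67, adjusted p = 0.101), a library against its label, and the Lyz2 call ended in 5 of 8 omissions of 1 library, with its smallest change at -0.44 without that same library (adjusted p = 0.141). Under the same scaling 0 were lower and 1 higher in dKO cells at 1 h (14.1% and 10.8%) and 0 lower and 2 higher at 2 h (23.7% and 18.6%). Omitting the 5 libraries, 6 genes were called lower and 0 higher in WT cells at 1 h (68.7% and 11.0%), 5 lower and 1 higher in WT cells at 2 h (74.9% and 14.3%), 4 lower and 0 higher in dKO cells at 1 h (67.8% and 9.49%) and 6 lower and 1 higher in dKO cells at 2 h (72.3% and 13.8%).

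The third question was whether the LPS response itself differed between genotypes. This was tested as a difference of differences, dKO minus WT. At 6 h Cd68 passed: its log2 response was -0.75 in dKO cells and -1.66 in WT cells, a difference of 0.92 ± 0.22 (adjusted p = 0.0311), and 0.70 with the 27 libraries (adjusted p = 0.00345). It was the 1 gene called of the 9, where 0.923% of all genes were called in either direction. The call was lost in 10 of 16 omissions of 1 library (0.77 to 0.94 in these, adjusted p up to 0.0985) and in a fit of the 4 groups compared alone. Over all genes 64 differences were called higher and 39 lower, and after median-of-ratios scaling 52 and 61. Without the 5 libraries Csf1r (0.47, adjusted p = 0.000457) and Fcgr1 (0.57, adjusted p = 0.00254) were called too, 3 genes where 20.3% of all genes were called. The differences of Csf1r (1.17 ± 0.57), Apoe (1.00 ± 0.33) and Lyz2 (0.84 ± 0.36) at 6 h with 32 libraries did not pass (adjusted p = 0.573, 0.209 and 0.45). At 1 h and 2 h limma called 0 of the 9 genes (0.0359% and 0.305% of all genes), with 1 gene, Mertk, at an unadjusted p below 0.05 at 1 h and 0 at 2 h, and the 27 libraries also gave 0 (1.8% and 5.62% of all genes). The genotype and LPS comparisons use the same libraries, so their changes are not independent.

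The order of the 8 groups differed between genes. In the 27 libraries Csf1r descended from dKO 0 h (361 ± 20.6 RPKM, SD, n = 3) through WT 0 h (291 ± 5.06, n = 4), dKO 1 h (260.2 ± 5.42, n = 3), WT 1 h (188 ± 6.48, n = 4), dKO 2 h (161 ± 13.2, n = 2), WT 2 h (114 ± 5.58, n = 4) and dKO 6 h (35.6 ± 3.76, n = 3) to WT 6 h (20.5 ± 1.28, n = 4), and no neighbours in this order overlapped. For Pf4 and Apoe every dKO group mean exceeded every WT group mean. The 3 dKO libraries of Pf4 at 6 h that fit their label averaged 77.6 ± 17.1 RPKM, against 54.9 ± 11.6 RPKM in WT cells at 0 h (n = 4), and overlapped with them; for Apoe the same groups had 248 ± 14.8 and 201 ± 34.4 RPKM and overlapped too.

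Further levels of the course follow. Mertk had 59.8, 46.0, 65.7 and 86.7 RPKM in dKO cells at 2 h, against 45.6, 43.7, 47.2 and 39.2 in WT cells, and the library at 46.0, inside the WT range, was against its label. At 6 h Mertk had 84.5, 91.1, 101 and 62.3 RPKM in dKO cells. Emr1 had 52.6 to 63.2 RPKM in dKO cells and 55.3 to 75.2 in WT cells at 1 h, and 55.5 to 70.9 and 61.9 to 80.7 at 2 h, with overlap at both. Cd68 had 343 to 391 RPKM in dKO cells and 307 to 371 in WT cells at 1 h, and 294 to 499 and 290.2 to 338 at 2 h, again with overlap. Gpnmb had 102 to 154 RPKM in dKO cells and 104 to 121 in WT cells at 1 h, and 104 to 128 and 95.9 to 116 at 2 h. Fcgr1 had 36.6 to 64.2 RPKM in dKO cells and 53.0 to 56.2 in WT cells at 1 h, so the WT libraries fell inside the dKO range. At 2 h Fcgr1 had 37.0, 57.6, 45.3 and 123 RPKM in dKO cells, and Csf1r had 171, 335, 152 and 44.8. For both genes the second and the last of these libraries were against their label.

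For each gene, the genes most like it were sought by Pearson correlation of log2 values over the 32 libraries, as a description: the libraries share genotypes and LPS times, which all genes follow. Csf1r was most like Pip5k1c (r = 0.996), Parvg (0.992) and Pld4 (0.991), and Lyz2 like Psap (0.991), Ctsa (0.988) and Ccl6 (0.983). Psap and Ctsa encode lysosomal proteins, as do Hexa (0.967) and Lipa (0.965), which followed Rnf130 (0.967) for Cd68. Apoe and Pf4 were among each other's closest (0.950), together with Fn1, the fibronectin gene (0.923 with Apoe and 0.951 with Pf4), and with Pltp for Apoe (0.935) and Dpy19l3 for Pf4 (0.927). Mertk was most like Kdr (0.957) and Ikbke (0.927), Fcgr1 like Cyp27a1 (0.919), Nek7 (0.911) and Sgk3 (0.903), and Gpnmb like Mmp8 (0.945), Mamdc2 (0.918) and Atp2a2 (0.917). Emr1 had the weakest likeness, to Ang (0.781), Pla2g7 (0.684) and Oip5 (0.683).

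Other genes of the same pathways did not share 1 direction between the genotypes. Averaged over the times, 6 of 12 tested genes of a tissue macrophage list were called higher in dKO cells and 4 lower, where 7.73% of all genes were called higher and 23.4% lower. C1qb and C1qc, subunits of the complement starter C1q that tissue macrophages make, fell: C1qb averaged 72.7 ± 30.4 RPKM in dKO cells and 327 ± 133 in WT cells (SD, n = 16 each, log2 -2.15, adjusted p = 3.39e-12), and C1qc 79.4 ± 36.0 and 198 ± 83.0 (-1.30). Pld3, a lysosomal nuclease gene, rose by 0.61. Among the scavenger and uptake receptors 6 of 10 were higher and 2 lower. The fatty acid and lipoprotein receptor gene Cd36 rose (136 ± 47.6 RPKM in dKO cells and 81.9 ± 26.6 in WT cells, log2 0.71), as did the integrin gene Itgam (0.65), whereas Siglec1, which encodes the sialic acid receptor CD169, fell (4.76 ± 2.22 and 13.5 ± 6.62 RPKM, -1.41).

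Of the 14 lipid handling and lysosome genes 5 were called higher and 3 lower in dKO cells, the 3 lower ones being near the 23.4% of all genes. Lamp1, a lysosomal membrane protein gene, rose by 0.55 and Ctsd, the cathepsin D gene, by 0.69, while Nr1h3, which encodes the cholesterol sensor LXR alpha, fell by 1.15 (2.12 ± 1.09 RPKM in dKO cells and 5.18 ± 1.96 in WT cells). Among the 12 macrophage transcription factors 4 rose, with Cebpb at 0.71 and Zeb2 at 0.50, and 1 fell, Irf8 at -0.73. Of 4 genes of the CSF1 and GM-CSF axis 0 rose and 1 fell (Csf2rb2, -0.30), of 4 receptors and ligands of the Mertk family 1 rose (Tyro3, 0.28), and of 6 Fc gamma receptor partners 1 fell. With the 27 libraries the counts of these 7 lists in the order given were 6 higher and 5 lower, 7 and 2, 7 and 5, 6 and 3, 2 and 1, 1 and 0, and 3 and 3, where 16.4% of all genes were called higher and 45.0% lower.

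Markers of other cell types moved with genotype as well. Of 14 dendritic cell genes 12 were called lower in dKO cells and 0 higher, where 23.4% of all genes were lower and 7.73% higher, and the counts were also 12 and 0 with the 27 libraries (45.0% and 16.4% of all genes). Cd207 and Epcam, known from Langerhans cells, were at 0.124 ± 0.176 and 0.220 ± 0.182 RPKM in dKO cells and 5.23 ± 2.80 and 4.69 ± 3.12 in WT cells, and Batf3 at 16.9 ± 3.24 and 33.9 ± 5.63. Of 9 granulocyte genes 6 were lower and 1 higher, with S100a9 at 133 ± 37.8 RPKM in dKO cells and 404 ± 131 in WT cells, and the summed level of the list was 356 to 506 RPKM in dKO cells at 0 h, against 634 to 804 in WT cells. Of 5 monocyte genes 1 was lower (Plac8, -1.50), near the share over all genes, and of 3 mast cell and basophil genes 2 were lower. In the 27 libraries 8 of the 9 granulocyte genes were lower and 1 higher, 2 of the 5 monocyte genes were lower (with Ly6c2 at -0.41, adjusted p = 1.03e-06) and all 3 mast cell and basophil genes were lower (with Hdc at -0.56, adjusted p = 1.29e-06), against 45.0% of all genes lower. B cell, erythroid and fibroblast markers were near 0, with summed levels of at most 2.32, 0.329 and 2.86 RPKM, and none could be tested; of the T and NK cell genes Cd8a alone could be (0.800 ± 0.415 RPKM in dKO cells and 1.42 ± 0.679 in WT cells, adjusted p = 0.000649). The part of these other cells in the values of the 9 genes was not tested.

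After LPS, in WT cells at 6 h 11 of 12 tissue macrophage genes were called lower and 0 higher, 8 of 10 scavenger and uptake receptors lower and 2 higher, 10 of 14 lipid handling and lysosome genes lower and 1 higher, and 9 of 12 transcription factors lower and 1 higher, where 60.9% of all genes were lower and 14.9% higher. In dKO cells the counts were 10 and 0, 7 and 1, 9 and 2, and 7 and 3 (60.2% and 14.7% of all genes). With 27 libraries they were 11 and 0, 8 and 2, 11 and 1, and 9 and 1 in WT cells (69.6% and 18.6% of all genes), and 10 and 0, 7 and 2, 11 and 3, and 7 and 3 in dKO cells (68.5% and 18.8%). Outside the tissue macrophage list, most lower counts were near or not far from these shares. The 8 of 10 scavenger and uptake receptors and 9 of 12 transcription factors in WT cells with 32 libraries lay further above them. Mrc1, the mannose receptor gene, had 12.0 ± 1.92 RPKM in WT cells at 6 h and 136 ± 15.7 at 0 h (SD, n = 4 each, log2 -3.45, adjusted p = 1.68e-07). Runx1, a transcription factor gene, had 2.14 ± 0.136 RPKM at 6 h and 16.2 ± 0.796 at 0 h (-2.66). Irf8 rose, to 444 ± 53.1 RPKM at 6 h, against 88.6 ± 8.98 at 0 h (2.32, adjusted p = 2.26e-07). The low-affinity Fc receptor genes Fcgr3 and Fcgr2b fell by 2.42 and 2.44, where Fcgr1 did not pass the test, and Axl, the receptor related to Mertk, rose by 0.41.

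Promoters were listed for 7 of the 9 genes; Csf1r and Emr1 had no entry. Of the 7, the PU.1 core, with GAGGAA on either strand, stood in promoters of Fcgr1, Apoe, Pf4 and Cd68, and TGAGTCA in those of Cd68 and Gpnmb. The E-box CACGTG of lysosomal genes and the letters TCATGTG bound by MITF-type factors were in none of them, and are in 7.15% and 3.77% of all promoters. TATAAA stood in a second Apoe promoter, on both strands in overlapping positions, and in 13.6% of all promoters. Each motif was searched on both strands.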

How the data were processed

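The 32 RNA libraries (4 µg total RNA, TruSeq v2, per the labels' protocols) were sequenced and processed with CASAVA 1.8.2 and mouse build mm9, per the submitters' processing notes. The deposited tables give RPKM per gene, computed by the authors, and a second whole-number signal column, proportional to RPKM within each gene up to a factor per library (largest relative spread of the ratio 4.99e-06); its deposited unit is not stated, and it was read as bases aligned and used for depth alone. Of 22308 entries 92 were spike-ins and were left out; 9 symbols stood on 23 entries.

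Groups followed the labels. RPKM was tested as log2(RPKM + 0.5), so fold changes of low genes are understated, in genes with at least 1 RPKM in 4 or more libraries, with limma 3.58.1 in R 4.3.3. The fit had 8 group means, a mean-variance trend, 24 residual degrees of freedom, 14 two-sided contrasts and Benjamini-Hochberg adjustment over all genes within a contrast, with a threshold of 0.05. The scripts were tested on simulated data. Figures used Python 3.11.15, pandas 2.3.3 and matplotlib 3.10.9. Alternatives were pseudocounts of 0.1 and 1, other filters, median-of-ratios scaling, quantile normalization, a robust fit, a fit of the compared groups alone, a replicate block, omission of each library, and omission of the 5 libraries against their label, also with median-of-ratios scaling (added after seeing the data).

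The 9 genes and the 16 gene lists (134 genes, 132 found, 97 tested) were chosen with earlier results of these data known. In each list up to 3 genes with the smallest adjusted p were named in the averaged genotype contrast and in the 6 h WT contrast, with markers at or near 0. For each of the 9 genes the 3 genes with the highest correlation were named, passing over uncharacterised loci. Flt3, H2-Aa and Cd74 were named apart from that rule. A few genes that the rule picks are not reported here.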

Additional observations from a re-analysis of the deposited data

Results flagged for a closer look

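Across the 72 combinations of gene and group, 8 held 1 library whose gap to the nearest of the other 3 exceeded Dixon's critical share of the group's range, where chance gives about 1 in 20. In 6 of them that library was one of the 5 against their LPS label. Csf1r was at 155 RPKM in dKO 1 h replicate 2, against 254 to 264 in the others, and at 171 in dKO 6 h replicate 4, against 31.4 to 38.6. Mertk was at 62.5 RPKM in dKO 1 h replicate 2, against 42.5 to 45.2. Apoe was at 255 RPKM in the same library, against 453 to 492, and at 518 in dKO 6 h replicate 4, against 235 to 264. Pf4 was at 95.5 RPKM in dKO 2 h replicate 4, against 132 to 136. The 2 others fitted their label: Pf4 was at 186 RPKM in dKO 0 h replicate 3, against 129 to 131, and Cd68 at 371 in WT 1 h replicate 2, against 307 to 316. The 6 h LPS response of Cd68 was called different between genotypes, by 0.92 on the log2 scale, dKO minus WT (limma, adjusted p = 0.0311). The call was lost in most omissions of 1 library (limma, adjusted p up to 0.0985) and in a fit of the compared groups alone.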

How the results depend on the processing

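Of 2817 values of single genes under an alternative, 2509 kept their direction and side of the threshold, 84 gained a call, 113 lost one, 14 that were called with or without the alternative changed sign, and 97 that were called in neither case changed sign, 42 of them by leaving out 1 library. Without the 5 libraries against their label, the number of the 9 genes called was 7 in dKO over WT cells at 0 h (2 with all libraries), 6 after 1 h of LPS in WT cells (3), 4 in dKO cells at 1 h (0), 7 in dKO cells at 2 h (3) and 3 for the difference of the 6 h responses (1). Adding median-of-ratios scaling to that omission, it was 6 in dKO over WT cells at 0 h, 7 at 1 h (4), 4 and 5 in dKO cells after 1 h and 2 h of LPS, and 3 for the 6 h difference. Median-of-ratios scaling and quantile normalization each gave 1 after 1 h of LPS in WT cells and 1 in dKO cells. A fit of the compared groups alone gave 4 in dKO over WT cells at 0 h, 2 at 2 h (4), 6 after 1 h of LPS in WT cells, 0 after 2 h in dKO cells and 0 for the 6 h difference; it was not run for the average over the times. The cause of these shifts was not tested.

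Leaving out 1 library at a time gave 2 to 3 called genes in dKO over WT cells at 0 h, 3 to 5 at 1 h, 3 to 4 at 2 h, 5 to 6 at 6 h and 7 to 8 averaged. For LPS it gave 2 to 3, 4 to 5 and 7 to 8 in WT cells, 0 to 0, 2 to 4 and 5 to 8 in dKO cells, and 0 to 1 for the 6 h difference.

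The 14 called values that changed sign did so under median-of-ratios scaling, with all libraries or without the 5. Mertk after 1 h of LPS in WT cells was at 0.036 and 0.034. After 2 h in WT cells Emr1 was at 0.55 and 0.55, Gpnmb at 0.55 and 0.55, and Cd68 at 0.085 and 0.085. Emr1 after 6 h in WT cells was at 0.28 and 0.28. Without the 5 libraries, Fcgr1 after 6 h in WT cells was at 0.43, Pf4 after 2 h at 0.49 in WT cells and 0.57 in dKO cells, and Gpnmb after 2 h in dKO cells at 0.38.

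Whether the replicate numbers pair the samples is not given by the labels. In their deviations, 1 of 16 dKO and WT pairs of the same number and time correlated above 0.1 (median 0.0518). So did 16 of 24 pairs across times in WT cells (median 0.140) and 5 of 24 in dKO cells (median -0.0653). The dKO deviations include the 5 libraries against their label. Pairs of unlike number were not compared, so these correlations do not settle whether the numbers pair the samples. With the number as a block, 4 of 126 values gained a call and 3 lost one. It gave 7 called genes in the averaged genotype comparison (8 without it) and 5 after 2 h of LPS in WT cells (4). RPKM carries no counts, so no counting interval is given, and depth limits single values to an unknown extent.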
